A study of Homo sapiens with 14 samples.

Results

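The genes described here are 36 genes of the ATF4 and amino acid response, of 58825 genes in the deposited count tables. They were chosen by name and split by function. The groups were 7 transcription factors, 12 enzymes listed under amino acid and one-carbon synthesis, 8 amino acid transporters, and 9 feedback regulators and other effectors. The enzyme list includes PCK2, a phosphoenolpyruvate carboxykinase that belongs to neither synthesis in the strict sense. All 36 genes were found in the tables and passed the filter on low counts in every comparison. The measurements were gene counts from RNA sequencing of 3 established human ovarian cancer lines, OVCAR-3, CAOV3 and SKOV3, each given 2.5 µM of GSK-J4 or of its isomer GSK-J5. The first compound enters cells and blocks JMJD3 (KDM6B) and UTX (KDM6A), enzymes that take a repressive methyl mark off histone H3, and the isomer was the control. OVCAR-3 was sampled at 48 h with 2 libraries per compound, and all 3 lines at 72 h with 3 libraries per compound, which gives 22 libraries in 14 samples. Replicates 1 and 2 were a first set (stripped medium, RNeasy mini kit), and replicate 3 a second set (medium with serum, RNeasy Plus kit, poly(A) enrichment), so replicate 3 and the set cannot be told apart. Every effect below is GSK-J4 relative to GSK-J5, as the labels list no untreated cells.

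ATF4 is a transcription factor whose protein is made more efficiently when the translation factor eIF2 is phosphorylated by one of several stress kinases, among them GCN2, which senses uncharged tRNA. It pairs with C/EBP family proteins, binds the C/EBP-ATF response element, and raises genes for the synthesis and import of amino acids and for tRNA charging. It also raises DDIT3 (CHOP), ATF3 and TRIB3, which shape or limit the response, and PPP1R15A (GADD34), which brings a phosphatase back to eIF2.

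The C/EBP-ATF element was searched as the 8 bases TGATGNAA on both strands, from 250 bases before to 50 bases after each transcription start, in RefSeq promoter windows on GRCh38.p14. Windows were found for 29 of the 36 genes, and 8 of these (27.6%) held a match, against 4.46% of the 27305 genes with a window and 3.62% of all 35116 windows. The stricter form TGATGCAA, with C at the open position, was found in 4 of the 29 (13.8%), namely CEBPG, SLC1A5, SLC1A4 and CHAC1, against 1.08% of all genes. A match is a description of the letters only. The promoter stretches below are shown because these 6 genes carry a match ahead of the start and because ATF3, CEBPG, SLC1A4 and CHAC1 are among those followed library by library. Capitals mark the match, which reads as its reverse complement in CHAC1 and SLC1A4.
ATF3 (chr1:212565170-212565269, plus strand, 191 bases before the start): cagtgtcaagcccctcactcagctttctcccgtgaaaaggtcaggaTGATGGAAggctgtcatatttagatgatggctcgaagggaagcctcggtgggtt
CEBPG (chr19:33374025-33374122, plus strand, 42 bases before the start): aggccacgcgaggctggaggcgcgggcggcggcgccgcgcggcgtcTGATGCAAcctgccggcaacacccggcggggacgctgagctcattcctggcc
ASNS (chr7:97872423-97872522, minus strand, 68 bases before the start): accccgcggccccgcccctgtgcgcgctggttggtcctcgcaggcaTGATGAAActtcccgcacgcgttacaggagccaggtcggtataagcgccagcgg
SLC1A5 (chr19:46784858-46784957, minus strand, 97 bases before the start): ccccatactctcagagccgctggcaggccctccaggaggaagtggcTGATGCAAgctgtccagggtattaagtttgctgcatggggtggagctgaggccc
SLC1A4 (chr2:64989346-64989408, plus strand, 7 bases before the start): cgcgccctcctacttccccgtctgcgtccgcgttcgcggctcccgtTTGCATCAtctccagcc
CHAC1 (chr15:40953221-40953315, plus strand, 209 bases before the start): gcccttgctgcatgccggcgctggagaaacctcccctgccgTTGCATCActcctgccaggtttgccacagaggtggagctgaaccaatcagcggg

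Libraries held between 24037007 and 37990707 counts, so that 3 counts, the limit a count of 0 allows, came to 0.079 to 0.12 CPM (counts scaled to a common library total), counting error only. OVCAR-3 and CAOV3 carried the epithelial marker EPCAM (280 to 452 and 451 to 512 CPM), whereas in SKOV3 it was 3.38 to 19.9 CPM beside 518 to 747 CPM of the keratin KRT8. Of the fibroblast markers in SKOV3, the collagen genes COL1A1, COL1A2 and COL3A1 were 347 to 476, 2.58 to 199 and 2.6 to 44.5 CPM. DCN was at most 0.848 CPM and LUM at most 11.8 CPM. PTPRC, the pan-leukocyte marker, was at most 1.003 CPM and the B cell gene MS4A1 had no count in any line, whereas the monocyte gene CD14 was 52.3 to 110.5 CPM in CAOV3. In OVCAR-3, the first-set GSK-J4 libraries of 72 h had fewer genes with 10 or more counts (14680 to 14714) than the first-set GSK-J5 libraries (16444 to 16504), and replicate 3 had 16231 with GSK-J4 and 16492 with GSK-J5. At 72 h, mitochondrial rRNA genes took 0.0322 to 0.0435% of counts in first-set OVCAR-3 libraries with GSK-J5 and 0.318 to 0.381% with GSK-J4. In OVCAR-3 replicate 3 they took 0.0961% with GSK-J5 and 0.257% with GSK-J4. Their part in the results was not tested. Whether replicates came from different cultures is not stated in the labels. The p-values therefore cover the spread among these libraries only, and that spread may be technical. These are bulk libraries, in which more cells with a response and more RNA per cell cannot be told apart.

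In OVCAR-3 at 48 h, 22 of the 36 genes were higher with GSK-J4 and none was lower, in edgeR's quasi-likelihood test with Benjamini-Hochberg adjustment over 17402 genes at 0.05. Of all genes tested, 11.3% were higher and 7.63% lower. The median log2 fold change of the 36 was 1.74, against -0.03 over all genes tested. Each of the 4 functional groups held called genes: 5 of 7 transcription factors rose, as did 4 of 12 synthesis enzymes, 6 of 8 transporters and 7 of 9 feedback and effector genes. The genes that did not pass were ATF4, ATF5, PSAT1, PHGDH, PSPH, SHMT2, MTHFD2, ALDH18A1, CBS, PCK2, SLC7A11, SLC38A2, DDIT4 and VLDLR. Library quality moved with the compound at 48 h: mitochondrial rRNA genes took 0.0694 to 0.0736% of counts with GSK-J5 and 0.275 to 0.415% with GSK-J4, and 16425 to 16576 against 15406 to 15606 genes had 10 or more counts. Their part in the result was not tested. The 48 h test shared its estimate of spread with the 72 h libraries. With replicate 3 dropped from that fit, the calls were 30 higher and 1 lower, ALDH18A1, an enzyme of proline synthesis (log2 fold change -0.27, SE 0.0807, adjusted p = 0.0147), where 29.1% of all genes were higher and 29.8% lower. Leaving out any 1 of the 4 libraries of 48 h from the larger fit left no gene called, and leaving out replicate 1 of GSK-J5 or of GSK-J4 at 72 h left 12 or 13.

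**Figure D1:**
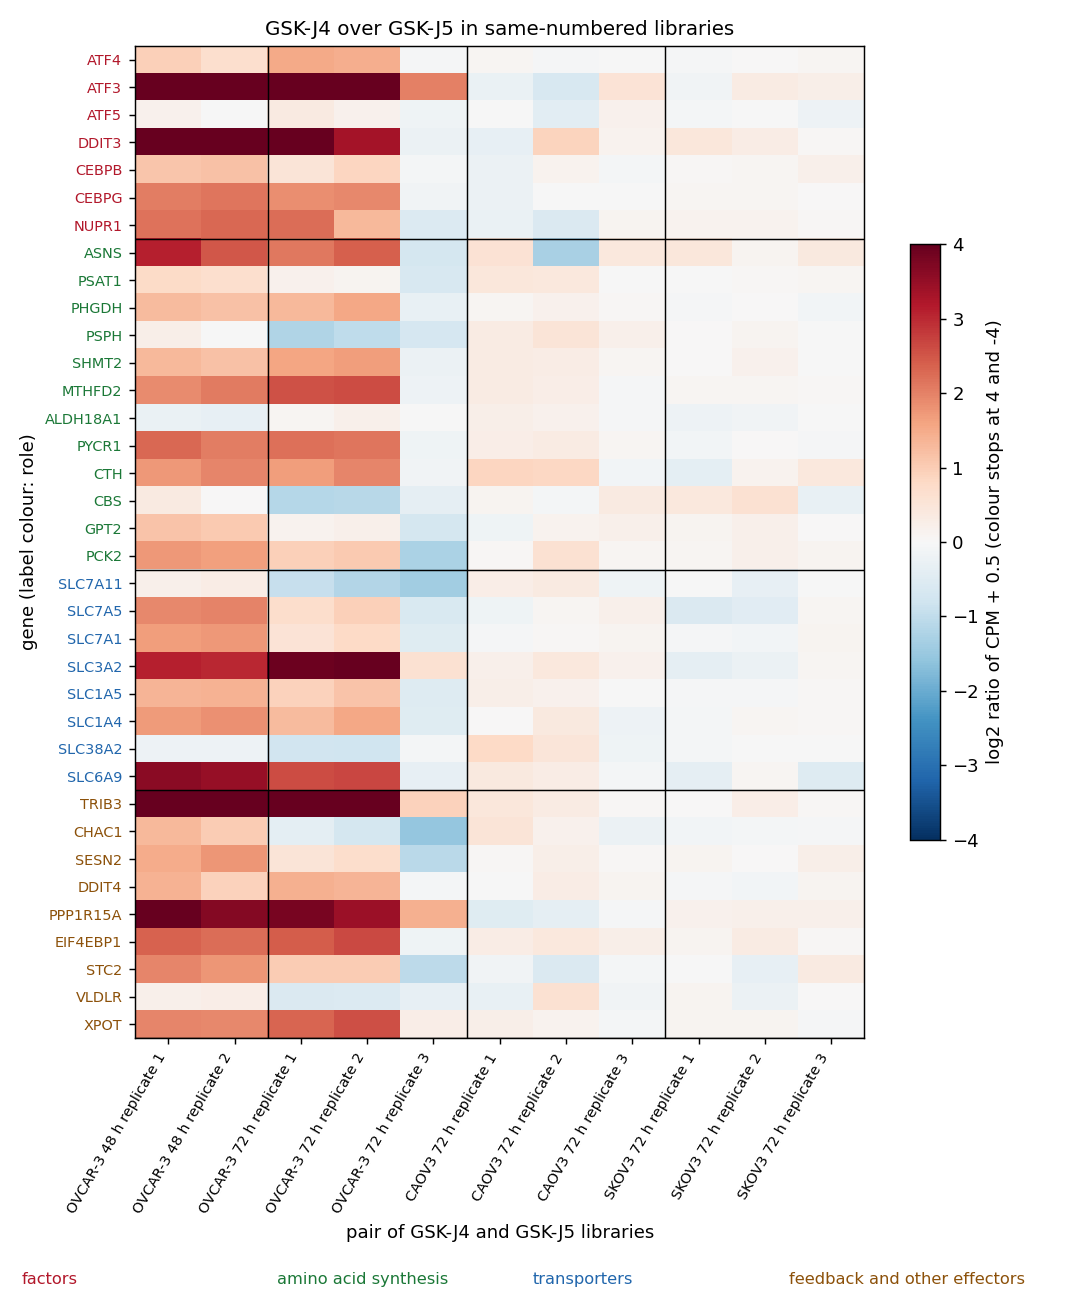
Map of log2 ratios of GSK-J4 to GSK-J5 (CPM plus 0.5), with 1 row per gene, label colours for the 4 functional groups and 1 column per same-numbered pair of libraries, where red is higher with GSK-J4, blue lower, and colours stop at 4 and -4. Red fills 30 or more of the 36 rows in OVCAR-3 replicates 1 and 2 at both times, and 5 rows in replicate 3 at 72 h.

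At 72 h the libraries of OVCAR-3 did not give 1 answer. In replicates 1 and 2, 30 of the 36 genes were above their same-numbered control in each, with median log2 ratios of 1.29 and 1.34, against all-gene medians of -0.095 and -0.096. In replicate 3 the median was -0.27 and 5 of the 36 were above their control and 31 below, while over all genes the median was 0.0957 and 59.8% were above. With all 6 libraries in 1 edgeR fit, 0 of the 36 genes were called in either direction. Of all genes, 0.0313% were higher and 0.00% lower. Of the 36, 17 had an unadjusted p under 0.05 (11 higher, 6 lower), and DESeq2's Wald test called 15 higher and 6 lower. The adjusted p of the 36 ran from 0.0698 to 0.939. The 48 h calls came from another fit, of all 10 OVCAR-3 libraries, so the counts at the 2 times are not like for like. At 72 h that larger fit called 14 of the 36 higher and 6 lower, beside 3983 and 3635 of 17402 genes. Replicates 1 and 2 alone gave 27 higher and 6 lower, beside 34.6% and 37.1% of all genes. In that fit the median log2 fold change was 1.49, against -0.09 over all genes.

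Levels below are CPM scaled by TMM factors, in the order of replicates 1, 2 and, at 72 h, 3. Tests at 48 h come from the fit of 10 OVCAR-3 libraries. The text gives 16 genes in every OVCAR-3 library, and only some of them in CAOV3 or SKOV3. The plot of levels shows 9 of the 16 in all 3 lines.

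**Figure D2:**
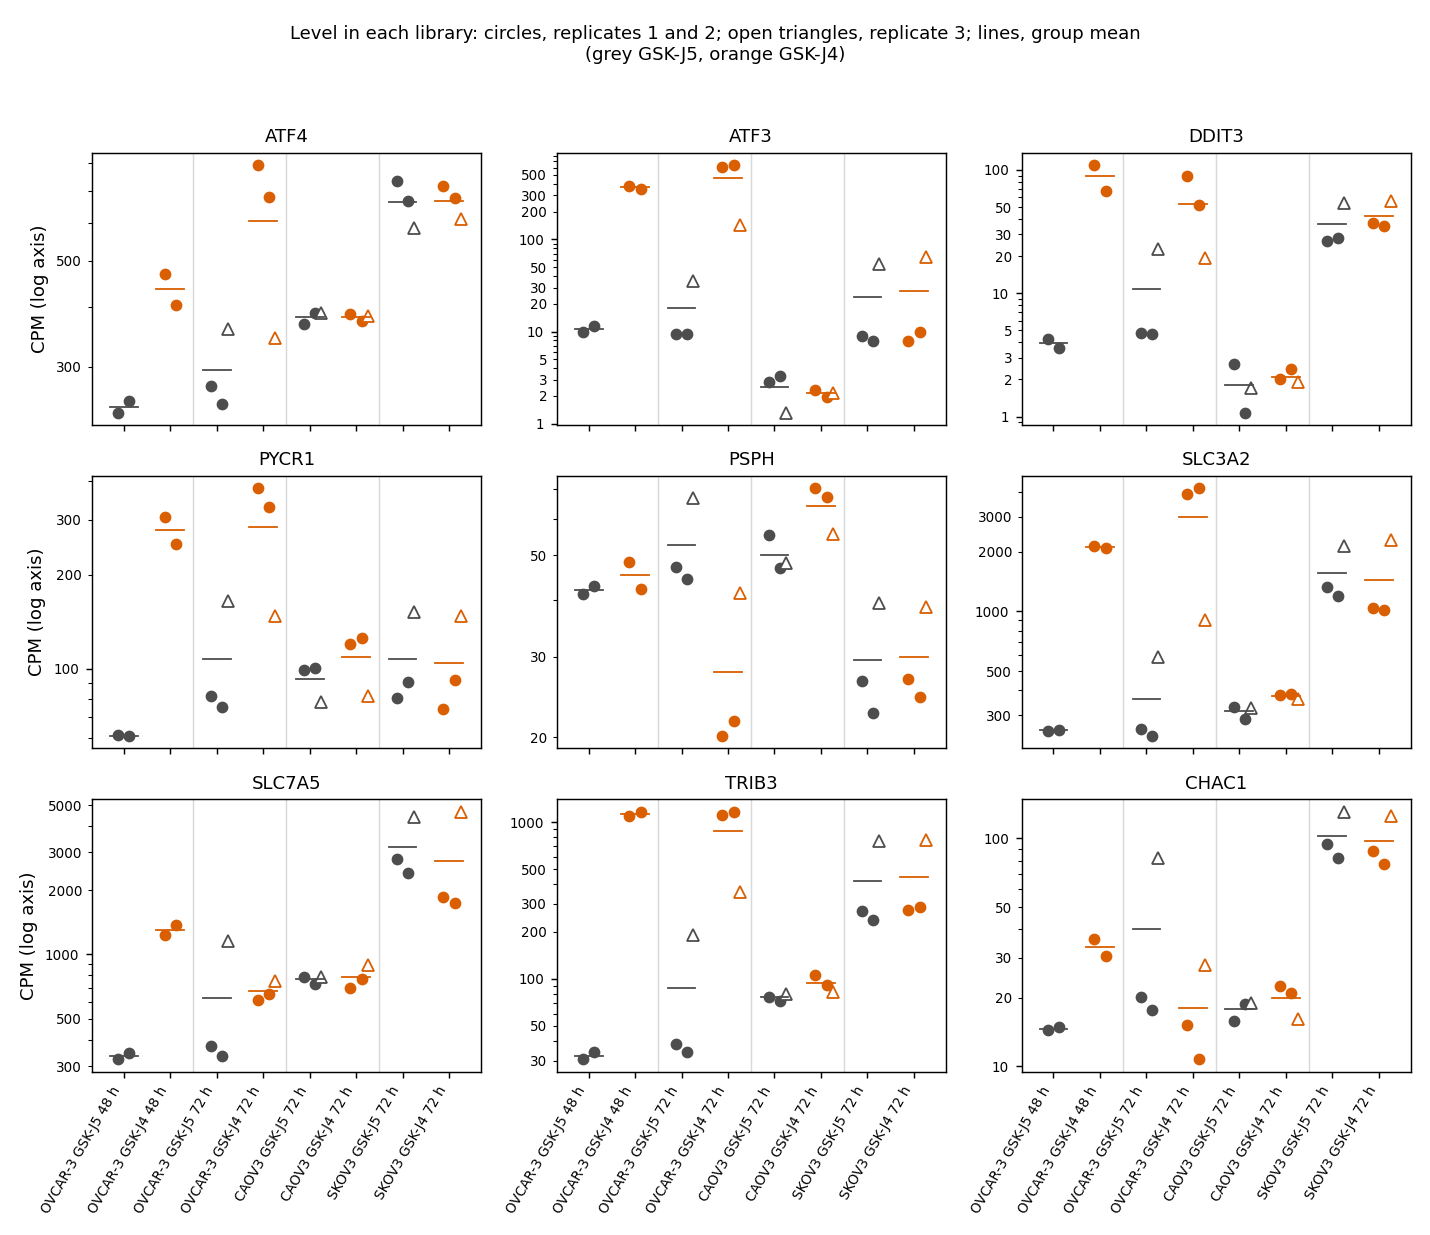
TMM-scaled CPM on log axes for 9 genes, with 1 point per library (circles, replicates 1 and 2; open triangles, replicate 3), a line at each group mean, grey for GSK-J5 and orange for GSK-J4. TRIB3 in OVCAR-3 at 72 h shows the split: circles at 38.4 and 34.3 against 1109 and 1162 CPM, triangles at 189.7 and 356 CPM.

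ATF4 (chromosome 22, 39519695 to 39522685, GRCh38) stood at 241 and 254 CPM with GSK-J5 and at 469 and 404 CPM with GSK-J4 in OVCAR-3 at 48 h. At 72 h it was 274, 251 and 361 CPM with GSK-J5 and 792, 680 and 345 CPM with GSK-J4. The groups were apart at 48 h, and at 72 h replicate 3 was the library in which GSK-J4 was not above its control. The 48 h log2 fold change was 0.85 (interval -0.02 to 1.72, SE 0.379, adjusted p = 0.127) and did not pass. Replicates 1 and 2 alone at 72 h gave 1.56 (SE 0.115, adjusted p = 4.52e-06). CAOV3 held 368, 388 and 389 CPM with GSK-J5 and 387, 374 and 383 CPM with GSK-J4. SKOV3 held 735, 668 and 584 CPM with GSK-J5 and 716, 678 and 610 CPM with GSK-J4, so that both groups overlapped in these lines.

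ATF3, a stress-induced repressor and activator (chromosome 1, 212565334 to 212620777), was low in every first-set control. At 48 h it went from 9.81 and 11.6 CPM with GSK-J5 to 381 and 349 CPM with GSK-J4, a 34.9-fold difference (log2 5.12, SE 0.967, adjusted p = 0.0214). At 72 h GSK-J5 gave 9.5, 9.45 and 35.2 CPM and GSK-J4 605, 638 and 144 CPM. The groups did not overlap, and replicate 3 was the highest of the controls and the lowest of the treated libraries. In SKOV3, ATF3 was 8.87, 7.82 and 53.8 CPM with GSK-J5 and 7.91, 10 and 63.7 CPM with GSK-J4, high in replicate 3 under both compounds. In CAOV3 all 6 libraries were at 3.32 CPM or under.

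DDIT3 (CHOP, chromosome 12, 57516588 to 57521737), which carries the pro-death arm of the stress response, was 4.27 and 3.57 CPM with GSK-J5 and 109 and 67.9 CPM with GSK-J4 at 48 h. The fold was 23.1 (log2 4.53, SE 1.02, adjusted p = 0.0292). At 72 h its values were 4.8, 4.71 and 23 CPM against 89.1, 51.7 and 19.4 CPM, with replicate 3 alone below its own control. An opposite-strand neighbour, MARS, overlaps 27.2% of its exon bases, and since the strand setting of the counting is not given in the sources used here, reads of the pair cannot be told apart. CEBPG, a C/EBP partner of ATF4 (chromosome 19, 33373330 to 33382686) with the stricter match printed above, rose from 108 and 112 CPM to 446 and 494 CPM (log2 2.13, SE 0.477, adjusted p = 0.0292). At 72 h it was 109, 108 and 204 CPM against 401, 410 and 184 CPM. NUPR1, a small chromatin-associated stress protein, and CEBPB, another C/EBP factor, passed at 48 h with log2 fold changes of 2.71 (SE 0.692, adjusted p = 0.0368) and 1.19 (SE 0.245, adjusted p = 0.0247).

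The 4 synthesis enzymes called at 48 h were PYCR1, CTH, GPT2 and ASNS. PYCR1, the last step to proline (chromosome 17, 81932384 to 81942412), went from 61.1 and 60.8 CPM to 305 and 252 CPM, a 4.66-fold rise (log2 2.22, SE 0.543, adjusted p = 0.0342). At 72 h the controls were at 81.5, 75.1 and 165 CPM and the GSK-J4 libraries at 378, 330 and 148 CPM. CTH, which releases cysteine from cystathionine (chromosome 1, 70411218 to 70439851), was 6.02 and 5.91 CPM with GSK-J5 and 21.3 and 24.4 CPM with GSK-J4 at 48 h (log2 1.97, SE 0.499, adjusted p = 0.0365). Its 72 h values were 5.79, 6.29 and 14.7 CPM against 19.5, 25.6 and 13.1 CPM. GPT2, an alanine transaminase, also rose (log2 1.13, adjusted p = 0.0269).

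ASNS, asparagine synthetase, passed with a log2 fold change of 3.60 (SE 0.905, adjusted p = 0.036) at low levels, 0.379 and 0.739 CPM with GSK-J5 and 7 and 6.41 CPM with GSK-J4. It held 1160 counts over the 22 libraries, and a same-strand gene overlaps 44.6% of its exon bases, so its counts are uncertain. MTHFD2, a mitochondrial one-carbon enzyme (chromosome 2, 74198562 to 74217565), was 126 and 117 CPM against 473 and 494 CPM at 48 h, yet its log2 fold change of 2.02 (SE 0.622) had an adjusted p of 0.0543. At 72 h it was 122, 134 and 202 CPM against 720.9, 815 and 175 CPM.

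PSPH, the final enzyme of serine synthesis (chromosome 7, 56011051 to 56051604), went the other way at 72 h. It was 41.1 and 42.8 CPM with GSK-J5 and 48.4 and 42.3 CPM with GSK-J4 at 48 h (log2 0.14, interval -0.20 to 0.48, adjusted p = 0.478), and 47.3, 44.4 and 66.7 CPM against 20.1, 21.7 and 41.3 CPM at 72 h. All 3 treated libraries of 72 h were below all 3 controls, though the joint fit gave log2 -1.0 (SE 0.152, adjusted p = 0.0698). Replicates 1 and 2 alone gave -1.06 (SE 0.117, adjusted p = 5.04e-05). CBS, the enzyme before CTH in transsulfuration, gave -1.10 in that fit (SE 0.154, adjusted p = 0.000222). CBS has a near-identical copy, so that its counts are uncertain. PHGDH, the first enzyme of serine synthesis, was 469, 442 and 706 CPM with GSK-J5 and 1165, 1282 and 574 CPM with GSK-J4 at 72 h, opposite to PSPH in replicates 1 and 2.

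In replicate 3 of 72 h, 7 of the 8 transporters were below their control, and SLC3A2 was above. SLC3A2 (4F2hc, the heavy chain shared by several transporters, chromosome 11, 62856102 to 62888875) was 249 and 254 CPM with GSK-J5 and 2132 and 2073 CPM with GSK-J4 at 48 h, an 8.52-fold difference (log2 3.09, SE 0.773, adjusted p = 0.0355). At 72 h its values were 257, 236 and 591 CPM against 3886, 4156.5 and 900.1 CPM, with no overlap between the groups. Its light-chain partner SLC7A5 (LAT1, chromosome 16, 87830023 to 87869488), an importer of large neutral amino acids, was 324 and 344 CPM against 1238 and 1372 CPM at 48 h (log2 1.99, SE 0.37, adjusted p = 0.0206). By 72 h it was 373, 336 and 1159 CPM with GSK-J5 and 609.7, 653 and 752 CPM with GSK-J4, and the third control was the highest of the 6.

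SLC6A9 (GLYT1, a glycine transporter, chromosome 1, 43991500 to 44031467) rose 12.6-fold at 48 h, from 9.29 and 9.14 CPM to 120 and 108 CPM (log2 3.66, SE 0.714, adjusted p = 0.0223). At 72 h it was 12.8, 11.9 and 57.4 CPM against 80.9, 78.8 and 45.1 CPM. SLC1A4 (ASCT1, a carrier of serine and alanine, chromosome 2, 64988477 to 65023865), whose match is printed above, was 15.6 and 15.7 CPM against 51.5 and 57 CPM at 48 h (log2 1.82, SE 0.458, adjusted p = 0.0358). Its 72 h values were 17.2, 16.2 and 34.4 CPM with GSK-J5 and 42.1, 48.7 and 24.3 CPM with GSK-J4. SLC7A1, a carrier of basic amino acids, and SLC1A5, a glutamine carrier, passed at 48 h with log2 fold changes of 1.74 (adjusted p = 0.0195) and 1.40 (adjusted p = 0.0401).

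SLC7A11, the cystine importer, and SLC38A2, a glutamine and alanine importer, stood apart from the rest of the group. SLC7A11 was 17.2 and 18.6 CPM against 20 and 22.9 CPM at 48 h (log2 0.29, SE 0.178, adjusted p = 0.244). At 72 h it was 18.5, 19.7 and 67.8 CPM with GSK-J5 and 9.6, 8.42 and 25.6 CPM with GSK-J4, lower in each same-numbered pair. With replicates 1 and 2 alone SLC7A11 gave log2 -1.01 (SE 0.145, adjusted p = 0.000252) and SLC38A2 -0.70 (SE 0.0963, adjusted p = 0.000192). In SKOV3, SLC7A11 stood at 587 to 768 CPM under GSK-J5, against 46.3 to 47.9 CPM in CAOV3.

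TRIB3, a pseudokinase that holds back ATF4 (chromosome 20, 362835 to 397559), was 30.7 and 34 CPM with GSK-J5 and 1095 and 1157 CPM with GSK-J4 at 48 h, a 35.5-fold rise (log2 5.15, SE 0.981, adjusted p = 0.0216). At 72 h the controls were at 38.4, 34.3 and 189.7 CPM and the GSK-J4 libraries at 1109, 1162 and 356 CPM. PPP1R15A (chromosome 19, 48872392 to 48876057), the phosphatase subunit of the eIF2 loop, was 25.3 and 27.6 CPM against 417 and 357 CPM at 48 h (log2 3.90, SE 0.562, adjusted p = 0.0149). Its 72 h values were 27.1, 26.1 and 55.8 CPM against 382, 284 and 152 CPM, again without overlap. XPOT, the exporter of tRNA from the nucleus (chromosome 12, 64404350 to 64451127), rose from 163 and 182 CPM to 633 and 697 CPM (log2 1.98, SE 0.508, adjusted p = 0.0373), and was 169, 166 and 262 CPM against 845, 986 and 316 CPM at 72 h.

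CHAC1, which degrades glutathione (chromosome 15, 40952962 to 40956519), changed direction between the times in replicates 1 and 2. It was 14.4 and 14.9 CPM with GSK-J5 and 36.2 and 30.6 CPM with GSK-J4 at 48 h (log2 1.22, SE 0.31, adjusted p = 0.0366). At 72 h it was 20.2, 17.6 and 82.2 CPM with GSK-J5 and 15.2, 10.7 and 27.9 CPM with GSK-J4, lower in all 3 pairs (log2 -0.47 with replicates 1 and 2 alone, SE 0.182, adjusted p = 0.0429). SESN2, a leucine-responsive brake on mTORC1, EIF4EBP1, a translation repressor, and STC2, a secreted glycoprotein, passed at 48 h with log2 fold changes of 1.68 (adjusted p = 0.0342), 2.33 (adjusted p = 0.0389) and 1.90 (adjusted p = 0.036).

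The change in the effect from 48 h to 72 h was tested in the fit of 10 OVCAR-3 libraries. It called 0 of the 36, as it called 0.00575% of all genes, with 12 genes at an unadjusted p under 0.05, all lower at 72 h, and with 4 called by DESeq2's Wald test. Using replicates 1 and 2 alone, 7 were higher at 72 h and 14 lower, where 27.0% of all genes were called. Higher were ATF4 (log2 difference 0.71), ATF3 (0.98), SHMT2, MTHFD2 (0.63), ALDH18A1, SLC3A2 (1.01) and XPOT (0.54). CHAC1 (-1.70), SLC7A11 (-1.30), CBS (-1.29), PSPH (-1.20) and SLC7A5 (-1.09) were among the lower ones.

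Replicate 3 of OVCAR-3 differed from replicates 1 and 2 on both sides of the comparison. Under GSK-J5, 34 of the 36 genes were higher in replicate 3 than in both other controls. The median ratio over the 36 was 2.13 times (from 0.856 times for CBS to 6.82 times for NUPR1). Of all genes tested, 37.9% had a control difference between the sets above 0. Under GSK-J4, 23 of 36 were lower in replicate 3 than in both other treated libraries, with a median ratio of 0.698. Within replicate 3 the ratio of GSK-J4 to GSK-J5 ran from 0.339 for CHAC1 to 4.08 for ATF3, with a median of 0.828. Below their control were 31 of the 36 genes, where 59.8% of all genes were above theirs. The 5 above their control were ATF3, PPP1R15A (2.72 times), TRIB3 (1.88), SLC3A2 (1.52) and XPOT (1.20). Treated replicate 3 was above both first-set controls for 32 genes, as its own control was for 34. That count sets libraries of different sets against each other, so compound and set cannot be told apart in it. How many of all genes met the rules behind the counts of 34, 23 and 32 was not counted.

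**Figure D3:**
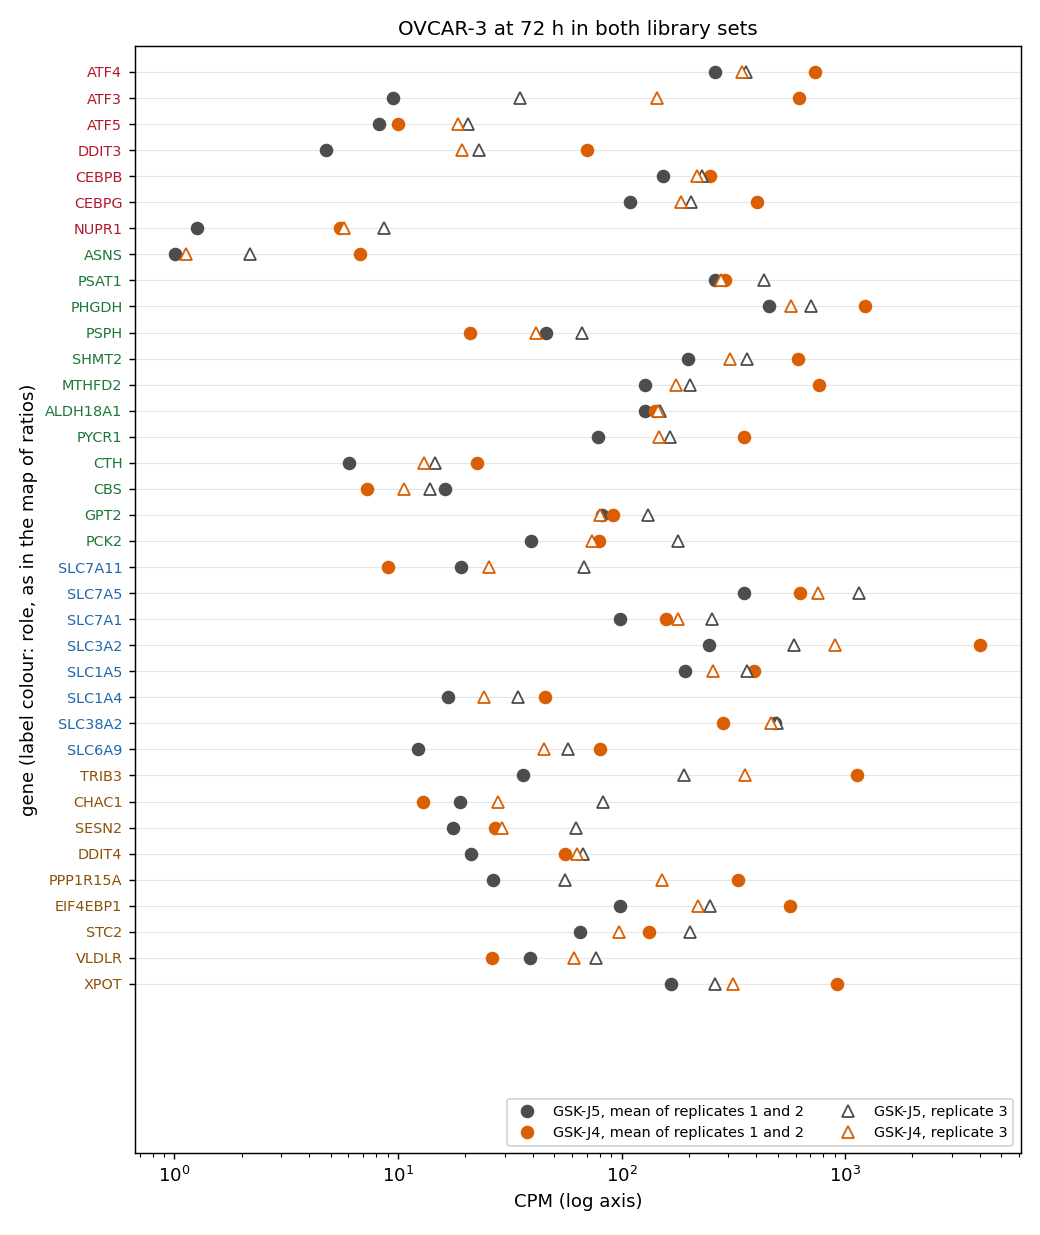
Level of each of the 36 genes (CPM, log axis) in OVCAR-3 at 72 h, with filled circles for the mean of replicates 1 and 2, open triangles for replicate 3, grey for GSK-J5 and orange for GSK-J4. With GSK-J5, replicate 3 was above both first-set libraries, drawn here only as their mean, for 34 genes. The orange triangle lies left of the grey one for 31.

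The difference between sets was fitted over the 18 libraries of 72 h. The second set holds 1 library per compound and line, with no spread of its own, so that each such library is assumed to vary like the pairs of the first set. The p-values of all set differences therefore describe these single libraries. The GSK-J4 effect in OVCAR-3 was lower in the second set for 29 genes and higher for 1, SLC38A2 (log2 difference 0.66, adjusted p = 0.00197). Over all genes, 34.8% were called, with medians of -1.83 for the 36 and 0.31 for all genes tested. With DESeq2's size factors these were -1.99 and 0.16. ATF3 (-4.04, SE 0.207, adjusted p = 3.02e-09), DDIT3 (-4.16, SE 0.475), TRIB3 (-4.09, SE 0.17), ASNS (-3.71) and SLC3A2 (-3.45, SE 0.151) led the 29, and ATF4 itself was at -1.58 (SE 0.156, adjusted p = 1.19e-06). In the controls, 1 second-set library against 2 of the first set, 32 of the 36 were higher and none lower, where 10.9% of all genes were called in either direction. The exceptions were ASNS, ALDH18A1, CBS and SLC38A2. Highest were NUPR1 (log2 2.77, SE 0.258), TRIB3 (2.39, SE 0.112), DDIT3 (2.27, SE 0.324) and SLC6A9 (2.22), while ATF4 gave 0.46 (SE 0.108, adjusted p = 0.0112). Medium, RNA kit and library preparation moved together with the set, so their parts cannot be told apart.

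In SKOV3 controls, again 1 second-set library against 2, 13 of the 36 were higher in the second set and 6 lower, beside 20.3% of all genes called. ATF3 gave a log2 difference of 2.67 (SE 0.142, adjusted p = 2.25e-09), PPP1R15A 2.03 and TRIB3 1.55, and SLC6A9 -1.23, CTH -1.04 and DDIT4 -0.69. The GSK-J4 effect itself did not differ between sets for any of the 36 in SKOV3 (0.00% of all genes, 3 genes at an unadjusted p under 0.05, and 0 called by DESeq2's Wald test). With the same numbers of libraries in CAOV3 controls, DDIT4, an mTORC1 inhibitor, was higher (0.57, SE 0.111, adjusted p = 0.0475) and ATF3 lower (-1.32, SE 0.254, adjusted p = 0.0448), beside 0.223% of all genes. The GSK-J4 effect in CAOV3 differed between sets for none of the 36 (0.0986% of all genes, 5 genes at an unadjusted p under 0.05, and 2 called by DESeq2's Wald test). The 13 genes higher in SKOV3 controls were all among the 32 of 36 higher in OVCAR-3 controls (40.6% of these), and across the 36 genes the differences had Pearson's r of 0.108 and Spearman's rho of 0.136.

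**Figure D4:**
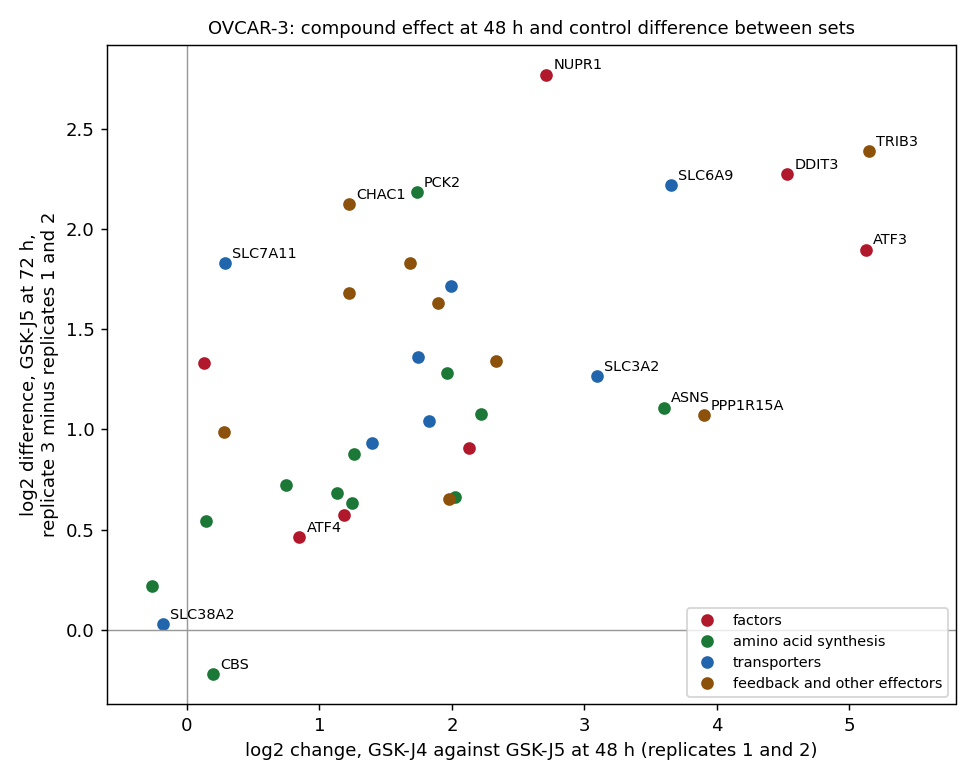
Each point is 1 of the 36 genes, coloured by functional group, with the log2 fold change of GSK-J4 over GSK-J5 in OVCAR-3 at 48 h against the log2 difference of the second set over the first in OVCAR-3 GSK-J5 libraries at 72 h. Both values are above 0 for 33 of the 36 genes, where 34 and 35 are above 0 singly, with Pearson's r of 0.59 across genes.

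Side by side, the 48 h effect and the second-set shift in OVCAR-3 controls were both above 0 for 33 of 36 genes and both called for 21, which is 95.5% of the first list and 65.6% of the second. Taken singly, the 48 h effect was above 0 for 34 of the 36 genes and the control shift for 35. The calls were 22 and 32, so most of this overlap follows from those counts. No overlap or correlation over all genes was computed. Pearson's r across the 36 genes was 0.59 and Spearman's rho 0.575. The libraries behind these values do not overlap, but both fits contain OVCAR-3 libraries of the same sets, and genes are not independent replicates.

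In CAOV3 at 72 h, 0 of the 36 genes passed, with a median log2 fold change of 0.13 and 28 of 36 above 0. Of all genes, 0.0673% were higher and 0.251% lower. Of the 36, 11 had an unadjusted p under 0.05, all higher, and DESeq2's Wald test called 2 higher. The 95% interval lay within a 2-fold change for 34 of the 36 genes. With replicates 1 and 2 alone 10 were higher (PSAT1, PSPH, SHMT2, MTHFD2, PYCR1, CTH, SLC3A2, SLC38A2, SLC6A9 and TRIB3) and none lower, beside 6.70% and 7.38% of all genes. SLC38A2 was 625, 668 and 720 CPM with GSK-J5 and 1082, 933 and 642 CPM with GSK-J4 (log2 0.61 in replicates 1 and 2, SE 0.0718, adjusted p = 5.16e-05). CTH was 12, 10.7 and 14.7 CPM against 22.2, 19.3 and 13.6 CPM. In both genes replicate 3 lay below its control.

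In SKOV3 at 72 h, again 0 of the 36 passed, with a median log2 fold change of 0.03, beside 0.0249% of all genes higher and 0.0186% lower. Of the 36, 5 had an unadjusted p under 0.05 (3 higher, 2 lower), and DESeq2's Wald test called none. The interval lay within a 2-fold change for 35 of the 36. With the replicate number as a block, which treats same-numbered libraries as pairs, 24 genes of the whole table were called in place of 7. Still none of the 36 was called. Replicates 1 and 2 alone called 1 of the 36, SLC7A5, as lower, beside 0.0242% of all genes higher and 0.0666% lower. SLC7A5 was 2788, 2409.5 and 4389 CPM with GSK-J5 and 1853, 1750.4 and 4651 CPM with GSK-J4, lower in the first pairs and higher in the third.

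The 72 h effects were then compared between lines in a fit of all 18 libraries. OVCAR-3 minus CAOV3 gave 12 of the 36, with 7 higher and 5 lower, beside 20.9% of all genes called. OVCAR-3 minus SKOV3 gave 15, with 11 higher and 4 lower, beside 22.6%. ATF4, ATF3, CEBPG, SLC3A2, TRIB3, PPP1R15A and XPOT were higher in OVCAR-3 in both comparisons, whereas PSPH, CBS, SLC7A11 and CHAC1 were lower in both. CAOV3 minus SKOV3 called none (0.00% of all genes, with 0 of the 36 at an unadjusted p under 0.05 and 0 by DESeq2's Wald test). With the replicate number as a block, which treats same-numbered libraries as pairs, OVCAR-3 minus SKOV3 gave 5 (3 higher, 2 lower). In replicate 3, the median log2 ratio of the 36 genes was -0.27 in OVCAR-3, 0.046 in CAOV3 and 0.035 in SKOV3. Leaving out replicate 1 or replicate 2 left none of the 36 called in either comparison. Without replicate 3 the counts were 33 (26 higher, 7 lower) and 29 (25 higher, 4 lower), where 41.5% and 42.0% of all genes were called.

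Around these 36 genes, 4 further lists of the pathway were measured in OVCAR-3 at 48 h, where 11.3% of all genes were higher and 7.63% lower. Of 21 other targets of ATF4 or CHOP, 15 were higher and none lower, with a median log2 fold change of 1.74. GDF15, a secreted stress cytokine, led with a log2 fold change of 8.14 (SE 1.54, adjusted p = 0.0214), then SLC43A1 with 3.54 (adjusted p = 0.0302) and ADM2 with 3.02 (adjusted p = 0.0279). Of 18 genes of the eIF2 kinases and eIF2 machinery, 2 were higher, EIF2B2 (1.45) and EIF2B3 (1.03), both subunits of the eIF2B exchange factor, which is near the share of all genes. Of 16 endoplasmic reticulum chaperone genes under ATF6 and XBP1, 6 were higher and none lower, led by DNAJB9 (1.64), SEL1L (1.48) and HYOU1 (1.31), with a list median of 0.29. Of 21 tested genes of amino acid sensing by mTORC1, 5 were higher, among them RRAGB (0.88), and 2 were lower, RRAGA (-0.93) and DEPDC5 (-0.77).

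At 72 h no gene of these 4 lists passed in OVCAR-3 (0.0313% of all genes higher, 0.00% lower) or SKOV3 (0.0249% and 0.0186%). In CAOV3 EIF2AK2 (PKR), an eIF2 kinase activated by double-stranded RNA, was lower (log2 -0.68, SE 0.106, adjusted p = 0.0385), beside 0.251% of all genes. OVCAR-3 minus CAOV3 called 8 of the 21 other targets and 8 of the 16 chaperones higher and none lower. Of all genes, 13.2% were higher and 7.74% lower. For targets and chaperones, OVCAR-3 minus SKOV3 gave the same counts, beside 13.5% and 9.08%. Of the 18 genes of the eIF2 kinases and machinery, 7 were higher and 2 lower against CAOV3, and 5 and 1 against SKOV3. Of the 21 tested genes of amino acid sensing, 3 were higher and 2 lower against CAOV3, and 5 and 3 against SKOV3. Without replicate 1 or 2, at most 1 gene of the whole table was called in either comparison. Of the 21 other targets, 13 were higher and none lower in OVCAR-3 controls of the second set (3.39% of all genes were higher and 7.47% lower), among them GDF15 (log2 4.38), INHBE (3.05) and ADM2 (2.96), whereas 1 of the 16 chaperones was higher, SEL1L (0.82), and 4 were lower. In SKOV3 controls of the second set, 6 of the 21 were higher and 2 lower (10.8% and 9.5% of all genes), and GDF15 gave 2.02.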

How the data were processed

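Gene counts of 22 libraries (14 samples) from 3 cell lines were analysed. The authors deposited raw counts per gene for 58825 Ensembl gene identifiers, whole numbers without normalization, and no row names anything but a gene. Per the submitters' processing notes, STAR, DESeq2 and the build GRCh38 (hg38) were used, without version or role. Which counting tool, strand setting and annotation release were used is not given in the sources used here. Antisense partners and near-identical copies therefore have uncertain counts. Symbols came from a name table for 58472 identifiers and from GENCODE 29 for 345, and 8 stayed without one. 1 shortened OVCAR-3 column header was assigned to GSK-J4 at 72 h, replicate 3.

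Fits used edgeR 4.0.16 in R 4.3.3: filterByExpr with a minimum count of 10, TMM scaling, glmQLFit and glmQLFTest, Benjamini-Hochberg adjustment over all genes tested at 0.05, prior count 0.125. Each line at 72 h had a fit of its 6 libraries and the library set, the 48 h effect and the time difference a fit of all 10 OVCAR-3 libraries with the set, and line and set differences a fit of the 18 libraries of 72 h. The standard error (SE) is the size of the log2 fold change divided by the root of the F statistic, and 95% intervals use the t distribution, so both are approximate. The members and lists were chosen with earlier results of these data known. Members given in every OVCAR-3 library were up to 4 per functional group, those called in the most of the 14 comparisons, plus ATF4. Of each further list, up to 3 called genes with the largest change per comparison could be named. The fits were tested on simulated data. Alternatives used DESeq2 1.42.0, its size factors, no filter, no set term, a replicate block, other fits, and each replicate or library left out.

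Labels number the replicates alike in both compounds. Deviations from group means of same-numbered libraries correlated above 0.1 in all 3 SKOV3 pairs (0.293, 0.292 and 0.66). The group means span both library sets. A set difference shared by both compounds and a pairing by number therefore cannot be told apart. Any pairing is a hint from the data and not from the labels.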

Additional observations from a re-analysis of the deposited data

Results flagged for a closer look

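The effect of GSK-J4 at 72 h differed between lines for 16 of the 36 genes in edgeR's quasi-likelihood test of the difference itself (Benjamini-Hochberg adjusted, 3 libraries per compound and line). Of all genes, 20.9% were called for OVCAR-3 minus CAOV3 and 22.6% for OVCAR-3 minus SKOV3. Each value here is a log2 difference between the effects. OVCAR-3 minus CAOV3 was above 0 for the factors ATF3 (5.03, SE 0.907, adjusted p = 0.00479), CEBPG (1.32, SE 0.396, adjusted p = 0.0324) and ATF4 (0.97, SE 0.315, adjusted p = 0.0424). It was also above 0 for TRIB3 (3.5, adjusted p = 0.0111), PPP1R15A (3.24, adjusted p = 0.00215), SLC3A2 (2.73, adjusted p = 0.0143) and XPOT (1.65, adjusted p = 0.0179). Below 0 were PSPH (-1.35, adjusted p = 0.00133), SLC7A11 (-1.35, adjusted p = 0.00232), CHAC1 (-1.06, adjusted p = 0.0216), CBS (-1.04, adjusted p = 0.0373) and SLC38A2 (-0.93, adjusted p = 0.0123).

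OVCAR-3 minus SKOV3 was above 0 for ATF3 (4.67, adjusted p = 0.00458), TRIB3 (3.68, adjusted p = 0.00956), SLC3A2 (3.16, adjusted p = 0.00878), PPP1R15A (2.73, adjusted p = 0.00371) and SLC6A9 (1.98, adjusted p = 0.0333). Smaller differences above 0 were XPOT (1.68, adjusted p = 0.0166), MTHFD2 (1.64, adjusted p = 0.0421), PYCR1 (1.46, adjusted p = 0.0362), CEBPG (1.16, adjusted p = 0.048), ATF4 (0.95, adjusted p = 0.0437) and DDIT4 (0.90, adjusted p = 0.0475). CBS (-1.20, adjusted p = 0.0231), SLC7A11 (-1.10, adjusted p = 0.00447), PSPH (-1.03, adjusted p = 0.00418) and CHAC1 (-0.83, adjusted p = 0.0479) were below 0. With the replicate number as a block, which treats same-numbered libraries as pairs, OVCAR-3 minus SKOV3 called 5 of the 36 genes (3 higher, 2 lower) in place of 15. The comparisons share the OVCAR-3 libraries. None of these calls was left without replicate 1 or without replicate 2. In replicate 3, the log2 ratio was larger in OVCAR-3 than in both other lines for ATF3, TRIB3, PPP1R15A, SLC3A2 and XPOT. It was not for CEBPG or ATF4 (-0.06 in OVCAR-3, -0.02 in CAOV3 and 0.06 in SKOV3). Against SKOV3 it was smaller for MTHFD2, PYCR1 and DDIT4 and larger for SLC6A9. PSPH, SLC7A11, CHAC1 and CBS were lower in OVCAR-3 than in both, and SLC38A2 was not lower than in CAOV3.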

How the results depend on the processing

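Counts are of the 36 genes called. The 22 higher in OVCAR-3 at 48 h became 14 without the low-count filter and 10 without the set term, and 0 to 31 when 1 replicate or library was left out. For genes lower at 48 h, the fit of 4 libraries alone gave 1, and leaving 1 out 0 to 1. The time difference (0) became 4 with DESeq2's Wald test, 4 without the filter and 0 to 21 with 1 left out. At 72 h OVCAR-3 (0 higher, 0 lower) gave 14 and 6 in the fit of 10 libraries, 15 and 6 with DESeq2, 2 and 2 without the filter, and 0 to 27 and 0 to 6 with 1 left out. CAOV3 (0 higher) gave 2 with DESeq2, 3 without the filter and 0 to 10 with 1 left out, and SKOV3 (0 lower) 0 to 1. For set differences, the CAOV3 effect (0) gave 1 in the fit of 6 libraries, 2 with DESeq2, 1 without the filter and 0 to 1 with 1 left out, CAOV3 controls (2) gave 1 with DESeq2's size factors, 3 without the filter and 0 to 1 with 1 left out (0 without replicate 1 or 2 of the CAOV3 controls), and the SKOV3 effect (0) gave 1 without the filter. OVCAR-3 minus CAOV3 (12) gave 19 with DESeq2, 22 without the filter, 4 without the set term and 0 to 33 with 1 left out. OVCAR-3 minus SKOV3 (15) gave 24 without the filter, 4 without the set term and 0 to 29, and CAOV3 minus SKOV3 (0) gave 0 to 2. The promoter match (8 genes) became 4 with the stricter core. The cause of these shifts was not tested. The OVCAR-3 set differences stayed at 29 to 30 (effect) and 29 to 32 (controls) of the 36 with 1 left out. DESeq2's size factors moved the 48 h split over all genes from 1969 higher and 1327 lower to 1747 and 1541, and that of the OVCAR-3 set difference from 4099 and 2616 to 3560 and 3165. Of 5544 single-gene values under alternatives, 4680 kept their side of the threshold and 0 reversed a call. Direction was not compared for values called in neither fit.

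With the replicate number as a block, the calls were 0 at 48 h, 4 for OVCAR-3 minus CAOV3 and 5 for OVCAR-3 minus SKOV3. In OVCAR-3 and CAOV3 the correlations of deviations ran from -0.074 to 0.163. The block changed no other count of members called. Depth limits ASNS most, with 1160 counts over 22 libraries.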
